A study of Mus musculus with 12 samples.

Results

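The 44 genes described here encode the machinery that loads amino acids onto tRNAs and the complex that recycles translation initiation factor eIF2. They were found by symbol among the 21937 genes of the table. Symbols of 1 letter followed by ars or ars2 were taken, together with Farsa, Farsb, Eprs, Aimp1, Aimp2 and Eif2b1 to Eif2b5. They comprised 20 cytosolic enzyme genes, 17 mitochondrial enzyme genes whose symbols end in 2, 2 scaffold genes and 5 eIF2B subunit genes. Gars, Kars and Qars were counted as cytosolic, though no member ending in 2 stands beside them. The count of a gene does not tell which compartment its enzyme serves. RNA was sequenced from myelin, a light-weight membrane fraction obtained from brains of male, wild-type c57Bl6/N mice by sucrose density gradient centrifugation. The 4 ages were P18, P75, 6 months and 24 months, and each age had 3 libraries. Separate brains are stated for the 6-month libraries only, so at the other ages the spread between libraries, and the p values that rest on it, may be technical. No treatment or altered allele is given for any group. Because the fraction is not a sorted cell type, fewer cells of a type and less RNA per cell cannot be told apart in these values.

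An aminoacyl-tRNA synthetase joins an amino acid to its tRNA, and for many amino acids separate nuclear genes encode the cytosolic and the mitochondrial enzyme. Several cytosolic enzymes sit in a multi-synthetase complex held together by scaffold proteins, among them Aimp1 and Aimp2. eIF2B is the nucleotide exchange factor of eIF2, and phosphorylated eIF2 inhibits it during the integrated stress response. White matter is unusually sensitive to faults in these genes. In humans, mutations in any of the eIF2B subunits cause vanishing white matter disease, and mutations in several synthetases and in both scaffolds cause hypomyelination or other leukodystrophies.

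The libraries held between 20299052 and 27214385 reads on genes. Values are normalized read counts, that is, reads divided by a size factor of the library. All 44 members passed the filter on low values, a 12-library mean of 10 or more, and 42 had a mean over 100 at every age. The exceptions were the mitochondrial genes Wars2 and Ears2. The fewest reads behind any member were 43, for Wars2 in 1 library at 24 months. Mature oligodendrocyte markers were abundant in every library, with a summed level of 9 genes between 192020 and 613090. The same genes were highest at P18, where the lowest library was at 340070, while the highest library at P75 was at 254200.

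Of the 44 members, 35 differed between any of the 4 ages in a moderated F test of limma at an adjusted p under 0.1, against 83.8% of the 14634 genes tested. Between P18 and P75, 6 members rose and 10 fell, against 48.8% of all genes called in either direction, 25.9% up and 22.9% down. From P75 to 6 months 15 rose and 11 fell, against 60.6% of all genes, 31.2% up and 29.4% down. From 6 to 24 months 3 rose and 8 fell, against 29.3%, 16.6% up and 12.7% down. Over the whole span from P18 to 24 months 10 rose and 14 fell, against 69%, 34.7% up and 34.3% down. The share of members called was therefore below or close to that of all genes in each comparison, and the account below concerns which members moved and in which direction. Consecutive comparisons share the libraries of the age between them, so a high value at 6 months enters both.

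The balance of calls involving P18 depended on scaling. When every library was scaled to the same total, the median of all genes from P18 to P75 was 0.14 on the log2 scale instead of 0.02, and 10 members rose and 3 fell. Under that scaling 1 member rose and 7 fell from 6 to 24 months, and 10 rose and 6 fell from P18 to 24 months. Across all genes tested, the libraries of the compared ages did not overlap for 47.7% between P18 and P75, 63.1% between P75 and 6 months, 43.5% between 6 and 24 months and 66.6% between P18 and 24 months. An exact permutation test of 3 against 3 libraries cannot go below p = 0.1. The numbers in the library names run in blocks by age, so any batch of preparation and age cannot be told apart.

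**Figure D1:**
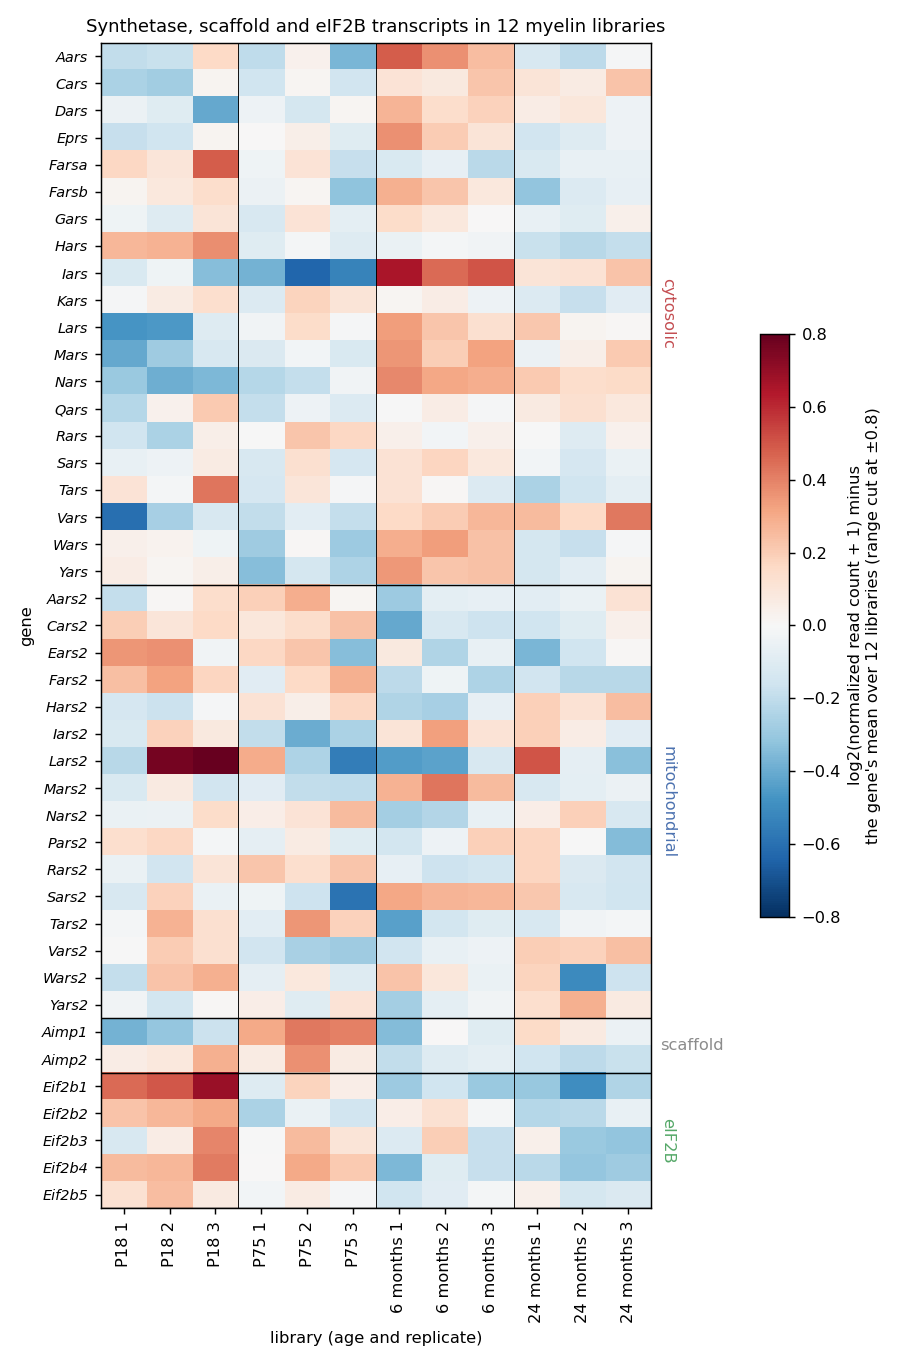
The heat map shows log2(normalized read count + 1) of 43 members (vertical axis, by class) in 12 libraries (horizontal axis, by age), each minus the gene's mean over the 12 libraries, with colours limited to ±0.8. Of the 20 cytosolic enzymes 13 had their highest mean at 6 months, and all 5 eIF2B subunits had it at P18. The share of all genes with their highest mean at each age was not counted.

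The 5 eIF2B subunits were lower at 24 months than at P18. Each passed the limma test, with falls between 0.22 and 0.89 on the log2 scale, and the libraries of the 2 ages did not overlap for 4 of the 5. Over the same span 69% of all genes were called, and 34.3% of all genes were called downwards. The libraries of these 2 ages did not overlap for 66.6% of all genes. Of the 5 subunits only Eif2b3 did not pass the F test over the 4 ages (adjusted p = 0.155). Marker genes of other cells moved over this span too. Of 9 mature oligodendrocyte markers 6 fell and 0 rose, with a median of -0.93, and of 7 markers of newly formed oligodendrocytes and precursors 5 fell and 0 rose, with a median of -0.83. Of 6 microglial markers 5 rose and 0 fell, with a median of 0.91. The part of these cells in the falls of the subunits was not tested. Eif2b1, the alpha subunit of the regulatory part, lies on chromosome 5, 125020222 to 125029140 of NCBIM37 (mm9). Its normalized read counts were 944, 969 and 1113 (P18), 641, 779 and 714 (P75), 563, 617 and 561 (6 months) and 557, 488 and 583 (24 months). Every library at P18 was above every later library. Eif2b1 fell by 0.50 (SE 0.10, adjusted p = 0.000886) from P18 to P75 on the log2 scale, and by 0.29 (SE 0.10, adjusted p = 0.0229) from P75 to 6 months. The second of these falls was no longer called without P75 replicate 2 (adjusted p = 0.107). From P18 to 24 months it fell by 0.89 (SE 0.10, adjusted p = 1.06e-06), which held in every setting tried.

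Eif2b2, the beta subunit, lies on chromosome 12, 86560431 to 86567578. It was at 696, 714 and 732 (P18), 498, 571 and 534 (P75), 616, 646 and 586 (6 months) and 507, 510.3 and 568 (24 months). P18 was highest, with a partial return at 6 months that lay above P75 without overlap. Eif2b2 fell by 0.42 (SE 0.09, adjusted p = 0.00111) from P18 to P75 and rose by 0.21 (SE 0.09, adjusted p = 0.0554) from P75 to 6 months. The rise was lost without P75 replicate 1 (adjusted p = 0.188), without 6-month replicate 1 (0.105) or replicate 2 (0.17), and under scaling to equal totals (0.168). Its fall of 0.22 (SE 0.09, adjusted p = 0.0803) from 6 to 24 months was lost without either of the same 6-month libraries (0.168 and 0.231), without 24-month replicate 1 (0.208) or replicate 2 (0.219), with equal totals (0.136), and with the replicate number as a block (0.101).

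Eif2b4, the delta subunit of the regulatory part, lies on chromosome 5, 31489931 to 31495803 and shares exon sequence with Snx17, so reads on the shared bases cannot be assigned to one of the 2 genes with certainty. It was at 1042, 1049 and 1165 (P18), 874, 1078 and 1008 (P75), 679, 818 and 767 (6 months) and 749.9, 703 and 717 (24 months). The P18 and P75 libraries overlapped, and all of them lay above the libraries at 6 and 24 months. Eif2b4 fell by 0.39 (SE 0.10, adjusted p = 0.00309) from P75 to 6 months and by 0.58 (SE 0.10, adjusted p = 6.14e-05) from P18 to 24 months.

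The catalytic subunits had the smallest falls over the whole span, though the difference between subunits was not tested. Eif2b5, the epsilon subunit with the exchange activity, lies on chromosome 16, 20498890 to 20510028 and was at 1535, 1675 and 1483 (P18), 1388, 1474 and 1399.5 (P75), 1259, 1323 and 1391 (6 months) and 1446, 1278 and 1301 (24 months). The decline was small, with the lowest P18 library above the highest at 24 months. It fell by 0.22 (SE 0.08, adjusted p = 0.0254) from P18 to 24 months, and the call was lost without P18 replicate 2 (adjusted p = 0.115), without 24-month replicate 2 (0.104) and with equal totals (0.226). Eif2b3, the gamma subunit, lies on chromosome 4, 116692007 to 116759911 and was at 447, 508 and 639.8 (P18), 487, 581 and 525 (P75), 452, 560.1 and 429 (6 months) and 501, 398 and 392 (24 months). Its libraries overlapped between all ages. The fall of 0.30 (SE 0.14, adjusted p = 0.0738) was lost without P18 replicate 3 (0.316), without 24-month replicate 2 (0.206) or replicate 3 (0.213) and with equal totals (0.215).

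Levels of different subunits can be compared only per length. Per kb of merged exon, mean normalized read counts at P18 were 487 ± 30.9 (SD, n = 3) for Eif2b5, 418 ± 26.7 for Eif2b4, 391 ± 35.4 for Eif2b1, 379 ± 9.52 for Eif2b2 and 81.1 ± 15.0 for Eif2b3. At 24 months the values were 418 ± 28.5 for Eif2b5, 279 ± 9.30 for Eif2b4, 280.4 ± 18.3 for Eif2b2, 211 ± 19.1 for Eif2b1 and 65.7 ± 9.36 for Eif2b3. Eif2b3 was lowest at every age. At P18 the steps from Eif2b4 to Eif2b1 and from Eif2b1 to Eif2b2 were smaller than the larger SD of the genes on either side, while those from Eif2b5 to Eif2b4 and from Eif2b2 to Eif2b3 were larger. The order of the other 4 was not stable to the length used: per kb of the longest coding transcript, Eif2b4 led at P18 with 536, ahead of Eif2b1 with 501 and Eif2b5 with 491.

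**Figure D2:**
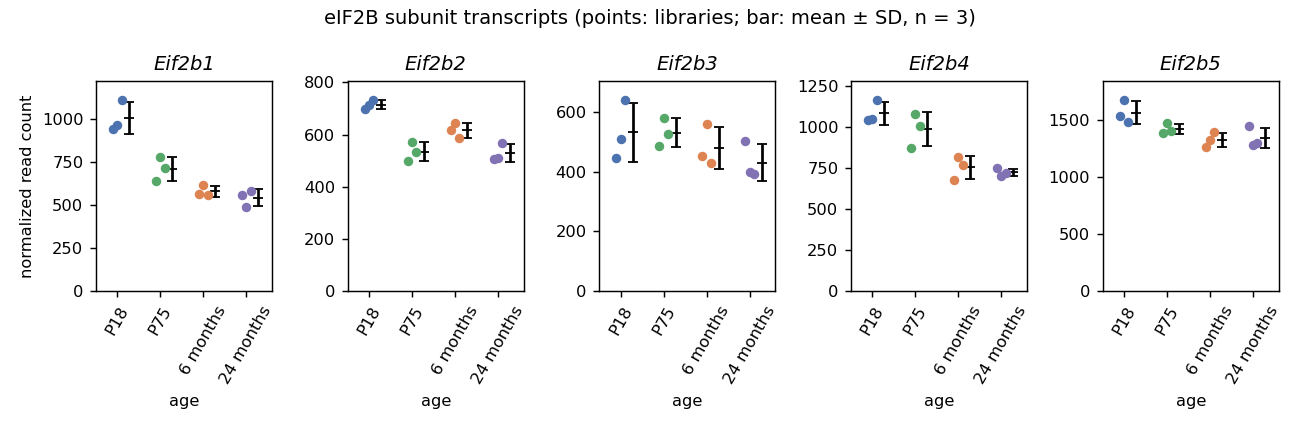
Points show the normalized read count (vertical axis, from 0) of each eIF2B subunit in each library by age (horizontal axis), and bars give the mean ± SD of 3 libraries. Eif2b1 lay between 944 and 1113 at P18 and between 488 and 583 at 24 months.

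Of the 20 cytosolic enzymes 11 rose and 0 fell from P75 to 6 months, and 9 did not pass the test. The share called, 55%, was below the 60.6% of all genes, and 31.2% of all genes were called upwards and 29.4% downwards. The median change was 0.24 on the log2 scale beside 0.01 for all genes tested. It stayed between 0.20 and 0.26 with the other pseudocounts, filters and scalings and with each library left out in turn. Of the 20 changes 17 were above 0, and those of Farsa, Kars and Rars, which did not pass the test, were below it. From 6 to 24 months 6 of the 20 fell and 0 rose, or 30% called beside 29.3% of all genes and 12.7% downwards, with a median of -0.16. From P18 to P75 3 rose and 5 fell, or 40% called beside 48.8% of all genes. The median of -0.03 became 0.10 with equal totals. From P18 to 24 months 7 rose and 5 fell, or 60% called beside 69% of all genes. Their median of -0.01 over that span became 0.07 with equal totals.

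Iars, the isoleucine enzyme of the multi-synthetase complex, had the largest rise of any member. It lies on chromosome 13, 49777469 to 49829636. It was at 684, 727 and 587 (P18), 573, 478 and 513 (P75), 1173, 1021 and 1054 (6 months) and 798, 807 and 871 (24 months). All libraries at 6 months were above all others, and those at 24 months were above those at P75 without overlap. Iars fell by 0.35 (SE 0.10, adjusted p = 0.00999) from P18 to P75, rose by 1.05 (SE 0.10, adjusted p = 7.22e-07) from P75 to 6 months and fell by 0.39 (SE 0.10, adjusted p = 0.014) from 6 to 24 months. The first fall was lost with equal totals (adjusted p = 0.132). Of the exon bases of Iars, 39.5% align at 90% identity or more elsewhere in the genome, on 1 other sequence, so its counts may have lost or gained reads there.

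Aars, the alanine enzyme, also peaked at 6 months. Mutations in its human counterpart are known in neuropathy and leukoencephalopathy. Aars was at 2726, 2752 and 3485 (P18), 2714, 3196 and 2427 (P75), 4374, 4014 and 3696 (6 months) and 2855, 2697 and 3100.0 (24 months). The 6-month libraries lay above those of every other age, and the other ages overlapped. It rose by 0.54 (SE 0.12, adjusted p = 0.00095) and then fell by 0.48 (SE 0.12, adjusted p = 0.0105). Its exons overlap AC093451.1.

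Wars, the tryptophan enzyme, showed the same order of ages. It was at 1539, 1528 and 1459 (P18), 1227, 1503 and 1223 (P75), 1830.4, 1886 and 1760.3 (6 months) and 1359, 1318 and 1484 (24 months). No library outside 6 months reached the 6-month range. It rose by 0.48 (SE 0.09, adjusted p = 0.00032) and fell by 0.40 (SE 0.09, adjusted p = 0.00751). Yars, the tyrosine enzyme, rose by 0.51 (SE 0.08, adjusted p = 6.52e-05) and fell by 0.34 (SE 0.08, adjusted p = 0.00974). Its exons overlap C77080 and snoU13, and 9.9% of its exon bases align elsewhere in the genome.

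Eprs, which joins the glutamate and proline enzymes in a single protein and is mutated in hypomyelinating leukodystrophy, was at 2063, 2091 and 2375 (P18), 2342, 2419.9 and 2190.0 (P75), 3012, 2690.4 and 2513 (6 months) and 2105, 2174 and 2278 (24 months). All 6-month libraries were above all libraries of other ages. It rose by 0.24 (SE 0.09, adjusted p = 0.0312) and fell by 0.32 (SE 0.09, adjusted p = 0.0193). The rise was lost without P75 replicate 3 (0.106), without 6-month replicate 1 (0.15) and with equal totals (0.128). Farsb, which encodes the beta chain of the phenylalanine enzyme, rose by 0.31 (SE 0.10, adjusted p = 0.0145) and fell by 0.36 (SE 0.10, adjusted p = 0.0208). Its exons overlap Sgpp2. The alpha chain gene Farsa did not follow, with -0.10 (SE 0.11, adjusted p = 0.462) from P75 to 6 months. It fell by 0.29 (SE 0.11, adjusted p = 0.0388) from P18 to P75 instead, a call lost without P18 replicate 3 (0.172), without P75 replicate 3 (0.159) and with equal totals (0.371). Per kb of merged exon Farsb was above Farsa at every age, with 608 ± 25.5 against 176 ± 26.1 at P18 and 658 ± 45.6 against 134 ± 7.0 at 6 months.

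Other cytosolic enzymes rose from P75 to 6 months and did not pass the test from 6 to 24 months. Nars, the asparagine enzyme, rose by 0.48 (SE 0.08, adjusted p = 0.000138) and then changed by -0.16 (SE 0.08, adjusted p = 0.172). Mars, the methionine enzyme, rose by 0.38, Vars, the valine enzyme, by 0.37 and Cars, the cysteine enzyme, by 0.24. The call of Cars was lost without P75 replicate 1 (0.135), without P75 replicate 3 (0.126) and without 6-month replicate 3 (0.157), and with equal totals (0.164). Part of the exon sequence of Mars overlaps Ddit3, that of Vars D17H6S56E-5 and that of Cars Gm15580. Nars, Mars, Vars, Cars and Lars were higher at 24 months than at P18, with Vars rising by 0.61 (SE 0.11, adjusted p = 0.000171).

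Lars, the leucine enzyme, rose earlier. It was at 665, 670.0 and 859.8 (P18), 904, 1021 and 918 (P75), 1163, 1075 and 1010.1 (6 months) and 1074, 937 and 931 (24 months). All libraries from P75 on were above those at P18. It rose by 0.38 (SE 0.11, adjusted p = 0.00877) from P18 to P75, and its change from P75 to 6 months did not pass the test, at 0.19 (SE 0.11, adjusted p = 0.137). Hars, the histidine enzyme, went the other way and fell by 0.38 (SE 0.07, adjusted p = 0.000543) from P18 to P75. Its P18 libraries were above all later libraries. By 24 months it was lower than at P18 by 0.50.

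Dars, the aspartate enzyme mutated in hypomyelination with brainstem and spinal cord involvement, was at 1536, 1489 and 1199 (P18), 1546, 1445 and 1609.6 (P75), 1924, 1756 and 1806 (6 months) and 1659, 1692 and 1549 (24 months). The 6-month libraries lay above the others. It rose by 0.25 (SE 0.09, adjusted p = 0.032) from P75 to 6 months, a call lost without P75 replicate 2 (0.114) and without 6-month replicate 1 (0.109). Rars, the arginine enzyme mutated in a Pelizaeus-Merzbacher-like disease, was at 1208, 1128 and 1391 (P18), 1344, 1569 and 1511 (P75), 1385, 1326 and 1387 (6 months) and 1341, 1255 and 1377 (24 months). The P18 and P75 libraries overlapped. It rose by 0.25 (SE 0.09, adjusted p = 0.036) from P18 to P75, a call lost without P18 replicate 2 (0.162) and without P75 replicate 2 (0.13).

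Kars, the lysine enzyme, was at 1501, 1583 and 1655 (P18), 1399, 1709.7 and 1624 (P75), 1526, 1572 and 1466 (6 months) and 1403, 1328 and 1416 (24 months). The ages overlapped from P18 to 6 months, and the change from P18 to 24 months was -0.19 (SE 0.08, adjusted p = 0.0588), lost without P18 replicate 2 (0.111) or replicate 3 (0.136), without 24-month replicate 2 (0.176) and with equal totals, where it was -0.12 (0.396). Of its exon bases, 19.8% align elsewhere in the genome. Of the 20 cytosolic genes, 5 did not pass the F test over the 4 ages, namely Gars, Kars, Qars, Rars and Sars, which load glycine, lysine, glutamine, arginine and serine.

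The 8 bases TGATGCAA, the core of the composite element bound by ATF4 and C/EBP factors, were searched for on both strands in promoter windows of 250 bases before and 50 after the start of each gene (RefSeq, GRCm38.p6). ATF4 is the factor translated when eIF2B is inhibited, and amino acid enzymes are among its known target genes. Of the 44 members, 32 had a window. The element was found in 4 of 12 cytosolic members, or 33.3%, in 0 of 14 mitochondrial members, in 0 of 4 eIF2B subunits, and in 1.032% of 27025 genes. With 1 base free, as TGATGNAA, which contains every TGATGCAA, it was found in 5 of 12 cytosolic members against 4.511% of genes, and again in 0 of 14 mitochondrial members. The core of the NRF1 motif, a palindrome of 10 bases bound by a factor of mitochondrial genes, was found in 0 members and in 1.073% of genes. The matches are letters in a window and not shown to be sites, and a window without a match says nothing about the factor.

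The 30 bases around 1 TGATGNAA match of each gene are shown because Aars, Iars and Yars were among the cytosolic genes that peaked at 6 months while Tars and Gars, with a match too, did not pass the test from P75 to 6 months. Capitals mark the match, on either strand, and each run is written 5′ to 3′ on the strand of the gene.
Aars (chr8:111033840-111033869, plus strand): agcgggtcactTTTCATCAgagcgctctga
Iars (chr13:49682126-49682155, plus strand): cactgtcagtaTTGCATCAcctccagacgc
Yars (chr4:129189895-129189924, plus strand): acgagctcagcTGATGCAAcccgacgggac
Tars (chr15:11399655-11399684, minus strand): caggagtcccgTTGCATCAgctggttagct
Gars (chr6:55037960-55037989, plus strand): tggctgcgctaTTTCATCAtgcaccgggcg
The stretches of Aars and Gars shown hold only the form with 1 base free. The match shown began 9 bases after the start of Aars. It began 7 bases after the start of Iars, 3 after that of Yars, 15 before that of Tars and 30 before that of Gars. From P75 to 6 months Tars, a threonine enzyme, changed by 0.02 (SE 0.11, adjusted p = 0.883) and Gars by 0.11 (SE 0.09, adjusted p = 0.311).

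The scaffold genes fell from P75 to 6 months. Aimp1, whose human counterpart is mutated in a severe hypomyelinating disease, was at 1940.5, 2033 and 2239 (P18), 3103, 3380.5 and 3326 (P75), 1979, 2524 and 2355 (6 months) and 2799, 2649 and 2435 (24 months). The P75 libraries were above every other library. It rose by 0.66 (SE 0.10, adjusted p = 6.73e-05) from P18 to P75 and fell by 0.52 (SE 0.10, adjusted p = 0.000295) from P75 to 6 months. Of its exon bases, 48.4% align elsewhere in the genome. Aimp2 was at 794, 808 and 931 (P18), 797, 983 and 799 (P75), 665, 709 and 724 (6 months) and 683, 659.5 and 675 (24 months), and it fell by 0.29 (SE 0.10, adjusted p = 0.0178) from P75 to 6 months, a call lost without P75 replicate 2 (0.111). Its exons overlap Eif2ak1. The third scaffold of the complex, Eef1e1, fell by 0.52 in the same interval. Of the 11 genes of the complex, 4 rose from P75 to 6 months, all enzymes, and 3 fell, all scaffolds. The other 4, also enzymes, did not pass the test. Of all genes, 31.2% were called upwards and 29.4% downwards in that interval.

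The mitochondrial enzymes moved in both directions. From P75 to 6 months 3 of 17 rose and 7 fell, or 58.8% called beside 60.6% of all genes, and the median was -0.15 on the log2 scale, which became -0.01 without P75 replicate 1. From 6 to 24 months 3 rose and 1 fell, or 23.5% called beside 29.3% of all genes. The median of 0.09 became -0.002 without 24-month replicate 1. From P18 to P75 2 rose and 3 fell, or 29.4% called beside 48.8% of all genes. The median was -0.09, and 0.03 with equal totals. From P18 to 24 months 2 rose and 3 fell, or 29.4% called, well below the 69% of all genes. The median was -0.02, and -0.23 after quantile normalization.

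Sars2, the serine enzyme, and Mars2, the methionine enzyme mutated in spastic ataxia with leukoencephalopathy, rose from P75 to 6 months. Sars2 was at 119, 148 and 126 (P18), 127, 116 and 86.2 (P75), 162, 157 and 157 (6 months) and 152, 119 and 117 (24 months), and every 6-month library was above every other library. It rose by 0.54 (SE 0.16, adjusted p = 0.00778) from P75 to 6 months. Mars2 was at 151, 173 and 148 (P18), 154, 144 and 143 (P75), 199.9, 222 and 197 (6 months) and 151, 156 and 159 (24 months), again with no overlap between 6 months and the other ages. It rose by 0.48 (SE 0.11, adjusted p = 0.00172) and fell by 0.41 (SE 0.11, adjusted p = 0.02). Iars2, the isoleucine enzyme, fell by 0.33 (SE 0.10, adjusted p = 0.0171) from P18 to P75 and rose by 0.46 (SE 0.10, adjusted p = 0.00135) to 6 months. The earlier fall was lost with equal totals (adjusted p = 0.15). Its exons overlap Rab3gap2.

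Cars2, the cysteine enzyme, had the largest fall among the mitochondrial enzymes at 6 months. It was at 274, 255 and 267 (P18), 255, 263 and 281 (P75), 179.6, 218 and 213 (6 months) and 214, 224 and 246 (24 months). All libraries at 6 months were below those at P18 and P75. It fell by 0.39 (SE 0.11, adjusted p = 0.0062) from P75 to 6 months. Aars2, the alanine enzyme mutated in a leukodystrophy with ovarian failure, was at 481, 553 and 607 (P18), 627, 672 and 556 (P75), 449, 521 and 524 (6 months) and 518, 529.8 and 594 (24 months). It fell by 0.31 (SE 0.11, adjusted p = 0.0237) from P75 to 6 months without overlap, a call lost without P75 replicate 2 (0.103) and without 6-month replicate 1 (0.113). The other falls in that interval were those of Tars2, Nars2, Rars2, Hars2 and Fars2, between 0.28 and 0.38. The exons of Nars2 overlap C230038L03Rik. The call of Fars2 was lost without P75 replicate 3 (0.151) and without 6-month replicate 3 (0.109).

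Ears2, the glutamate enzyme mutated in a leukoencephalopathy of thalamus and brainstem, was at 113, 114 and 86.4 (P18), 99.2, 103 and 69.7 (P75), 93.4, 74.6 and 84.7 (6 months) and 68.4, 78.9 and 88.9 (24 months). The ages overlapped, and the fall of 0.40 (SE 0.18, adjusted p = 0.0604) from P18 to 24 months was lost without P18 replicate 1 (0.162) or replicate 2 (0.172), without 24-month replicate 1 (0.195) or replicate 2 (0.107) and with equal totals (0.147). The exons of Ears2 overlap Ubfd1. Neither Ears2, Pars2 nor Wars2 passed the F test over the 4 ages. Pars2, the proline enzyme, ranged over all libraries from 91.6 to 133, and Wars2, the tryptophan enzyme, from 46.5 to 81.4.

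From 6 to 24 months Hars2, Vars2 and Yars2 rose. Hars2, the histidine enzyme, was at 423, 414 and 462 (P18), 504, 481 and 522 (P75), 393, 387 and 445 (6 months) and 531, 504 and 552 (24 months). The 24-month libraries were above those at 6 months without overlap, and Hars2 rose by 0.37 (SE 0.09, adjusted p = 0.0108). Its exons overlap those of Hars, which lies next to it. Vars2, the valine enzyme, was at 258, 298 and 283 (P18), 232, 216 and 212 (P75), 232, 249 and 251 (6 months) and 297, 294 and 305 (24 months), and it fell by 0.34 (SE 0.10, adjusted p = 0.0101) from P18 to P75 and rose by 0.29 (SE 0.10, adjusted p = 0.045) from 6 to 24 months. Yars2, the tyrosine enzyme, was at 507, 467 and 520.3 (P18), 537, 483 and 558 (P75), 429, 490.0 and 507 (6 months) and 568, 629 and 544 (24 months) and rose by 0.29 (SE 0.10, adjusted p = 0.0478). The fall of Vars2 was lost with equal totals (0.166). Its late rise was lost without 6-month replicate 1 (0.146), without 24-month replicate 2 (0.104) or replicate 3 (0.103) and with equal totals (0.169). That of Yars2 was lost without 6-month replicate 1 (0.195), without 24-month replicate 2 (0.188) and with equal totals (0.183).

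Lars2, the leucine enzyme, was at 11453, 22735 and 24384 (P18), 16418, 11278 and 9110.3 (P75), 9788, 9941 and 12227 (6 months) and 18983, 12732 and 10585 (24 months). The libraries within an age differed widely, and the ages overlapped. Its mean per kb of exon was the highest of the members at every age but varied most, with 5031 ± 1810 at P18. At P75 it was at 3161 ± 967 beside 2914 ± 131 for Aimp1. At 6 months it was at 2745 ± 352 beside 2408 ± 84.7 for Nars. Both gaps were smaller than the SD of Lars2. The fall of 0.64 (SE 0.26, adjusted p = 0.0645) from P18 to P75 was lost without P18 replicate 2 (0.207) or replicate 3 (0.193), without P75 replicate 2 (0.144) or replicate 3 (0.253), with DESeq2 (0.108) and with equal totals (0.104). Of its exon bases, 398 recur elsewhere in the genome in 11 alignments on 9 sequences. How far reads from those copies enter its count was not tested.

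**Figure D3:**
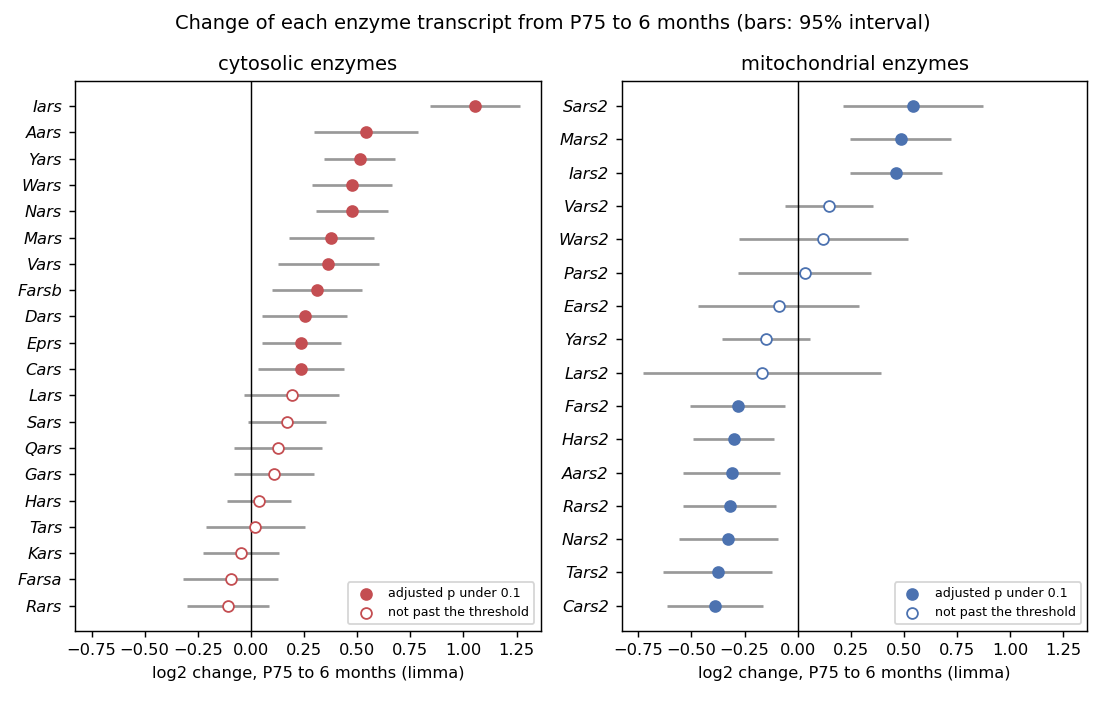
The log2 change from P75 to 6 months (horizontal axis) is shown for each cytosolic enzyme (left) and 16 mitochondrial enzymes (right), with 95% intervals from limma and filled points for an adjusted p under 0.1. All 11 filled cytosolic points lie to the right of 0, while 3 filled mitochondrial points lie to the right and 7 to the left.

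The difference between both classes can be read in each library. The median of the cytosolic genes minus that of the mitochondrial genes, each gene taken relative to its mean over the 12 libraries on the log2 scale, was 0.37, 0.26 and 0.18 at 6 months. In the other 9 libraries it was between -0.23 and 0.07. The 6-month libraries lay above all others. Among the 9 cytosolic genes without exon overlap or copy, 4 rose and 0 fell from P75 to 6 months, with a median of 0.19. Among the 8 such mitochondrial genes 2 rose and 3 fell, with a median of -0.06. The shares called were 44.4% and 62.5%, beside 60.6% of all genes, 31.2% upwards and 29.4% downwards.

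**Figure D4:**
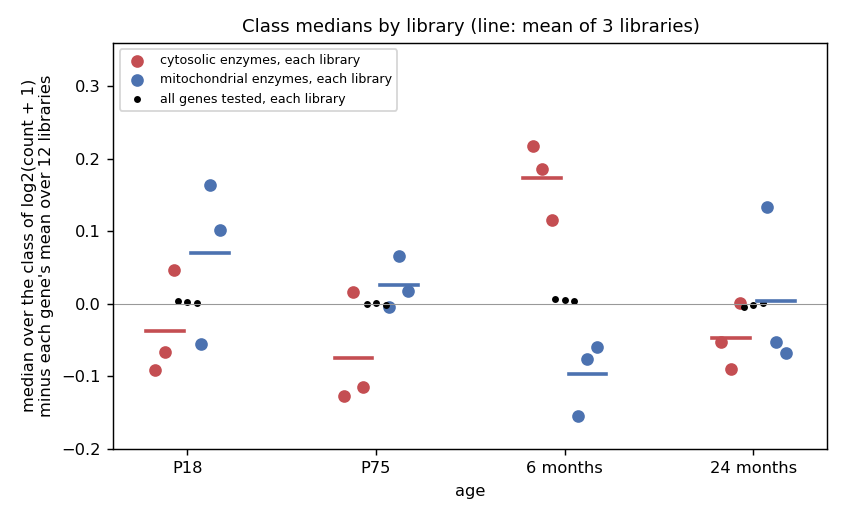
Points show, for each library, the median over the 20 cytosolic (red) and 17 mitochondrial (blue) enzymes and over all genes tested (black) of log2(count + 1) minus the gene's mean over the 12 libraries (vertical axis), by age (horizontal axis), and lines give the mean of 3 libraries. At 6 months the cytosolic medians lie between 0.12 and 0.22 and the mitochondrial medians between -0.15 and -0.06.

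Among the members, 14 amino acids have 1 cytosolic and 1 mitochondrial gene. The scaling of the library cancels in their log2 ratio within a library, apart from the 1 added to each count. The threonine pair leaves out Tarsl2, a gene for the same amino acid that the symbol rule did not take. From P75 to 6 months Tarsl2 rose by 0.64 (limma, SE 0.10, adjusted p = 4.47e-05). The mean ratio was higher at 6 months than at P75 in 12 of the 14 pairs and lower in 2, those of methionine and serine, with a median change of 0.36 on the log2 scale. The largest change was that of alanine. The Aars to Aars2 log2 ratio was 2.11, 2.25 and 2.12 at P75 and 3.28, 2.94 and 2.81 at 6 months. These libraries did not overlap. The asparagine ratio, Nars to Nars2, was between 3.65 and 3.67 at P75 and 4.61, 4.49 and 4.30 at 6 months, again without overlap. For serine, Sars to Sars2, the ratio was 4.90, 5.29 and 5.45 at P75 and 4.80, 4.90 and 4.81 at 6 months. No test was made over pairs, and the ratio itself is not corrected for length.

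**Figure D5:**
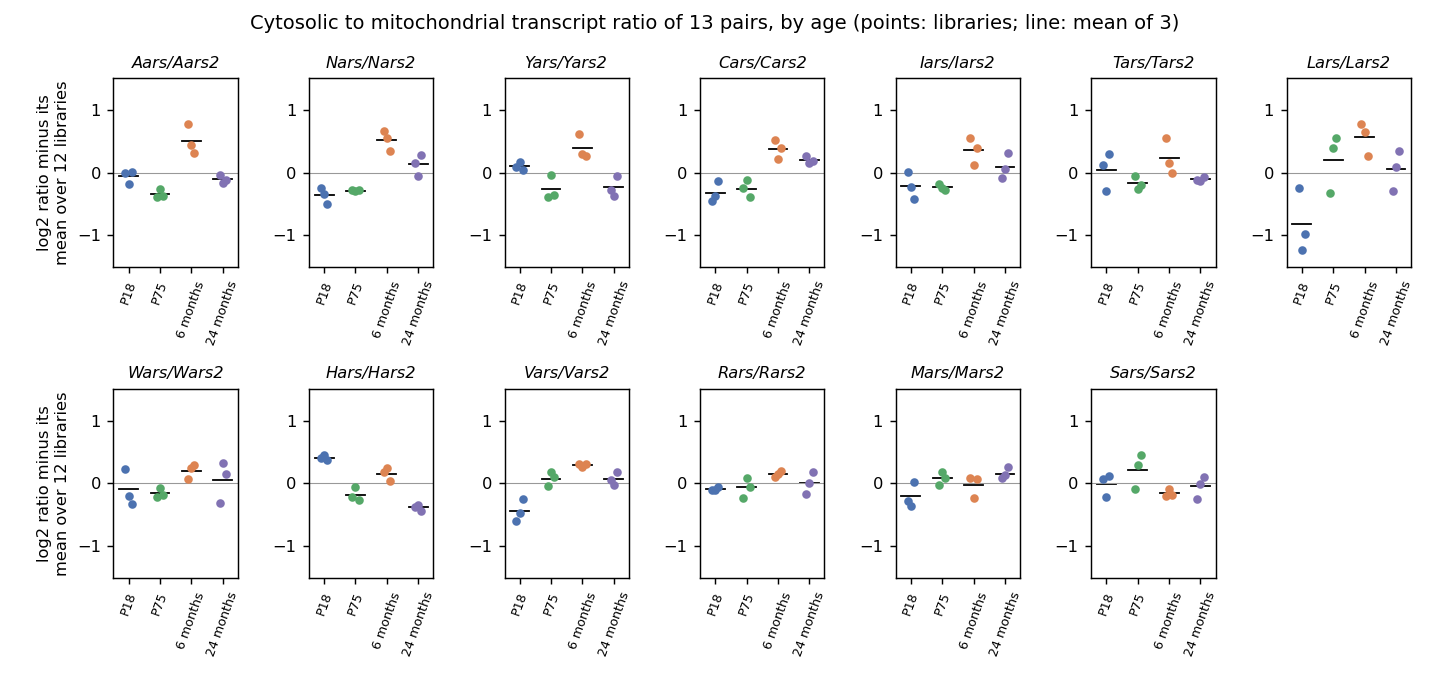
Each panel shows the log2 ratio of the cytosolic to the mitochondrial count for 1 of 13 amino acids, minus its mean over 12 libraries (vertical axis), by age (horizontal axis), with 1 point per library and a line at the mean of 3. The mean ratio was highest at 6 months in 10 of 13 panels, and the methionine and serine pairs were lower at 6 months than at P75.

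The wider pathway was read in the same fit. The counts of its lists stand beside 31.2% of all genes called upwards and 29.4% downwards from P75 to 6 months, and 16.6% and 12.7% from 6 to 24 months. Of 29 tested genes, namely Atf4 and targets of ATF4, 14 rose and 7 fell from P75 to 6 months, with a median of 0.23. From 6 to 24 months 4 rose and 5 fell. Sesn2, an inhibitor of amino acid sensing by mTORC1, rose by 2.25 on the log2 scale, Stc2, a secreted stress protein, by 1.52, and Slc7a11, the cystine transporter, by 1.12. Asns, the asparagine synthetase, rose by 0.57. Cebpb, a partner of ATF4, fell by 1.57, Nupr1 by 0.76, Cth by 0.64 and Ddit3, the stress factor CHOP, by 0.61. Atf4 itself was at 3061 ± 104 at P75 and 2882 ± 276 at 6 months (SD, n = 3). Among 10 eIF2 subunit, kinase and phosphatase genes 2 rose and 3 fell from P75 to 6 months. The eIF2 kinase gene Eif2ak3 (PERK) was at 323 ± 22.6 (P18), 526 ± 18.4 (P75), 580.0 ± 61.5 (6 months) and 761 ± 22.2 (24 months). It rose by 1.24 from P18 to 24 months. The phosphatase subunit genes went in opposite directions, with a fall of 0.97 for Ppp1r15a and a rise of 0.61 for Ppp1r15b. Over that span 3 of the 10 genes rose and 3 fell, with a median of -0.04. Of all genes, 34.7% were called upwards and 34.3% downwards. Of 11 other tRNA charging genes 3 rose and 5 fell from P75 to 6 months. Of 4 RNA polymerase III genes, which make tRNAs and are themselves mutated in hypomyelination, 2 rose, Polr3b by 0.32 and Polr3a by 0.27. Of 6 genes of mitochondrial content 2 rose and 3 fell, with a median of -0.01.

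Markers of other cell types moved in the same interval, in which 60.6% of all genes were called. From P75 to 6 months 5 of 8 neuronal markers rose and 2 fell, 4 of 6 microglial markers rose and 1 fell, 4 of 5 endothelial markers and 2 of 6 astrocyte markers rose. Summed neuronal markers went from between 182950 and 206190 (P75) down to between 169240 and 173430 (6 months). Snap25 made up most of this sum and fell from a mean of 141430 to 88328, and Stmn2 fell from 12888 to 10062. Among the neuronal markers that rose, Syt1 went from 3851 to 19472 and Slc17a7 from 5798 to 15204. The lower sum therefore does not describe most neuronal markers. For microglia the sum was 3481 to 3905 (P75) and 4636 to 5317 (6 months). The endothelial sum was 809.7 to 853 and 1165 to 1297, and the astrocyte sum 57394 to 66828 and 69315 to 79766. Of 9 mature oligodendrocyte markers 2 rose. From P18 to P75 6 of the 9 fell, with 5 of 7 markers of newly formed oligodendrocytes and precursors, the interval of the first fall of Eif2b1 and Eif2b2. The sum of 3 red blood cell markers, of which Hba-a1 and Hbb-b1 are listed at 0, went from 362 to 472 at P18 to between 29.2 and 57.7 later. The part of these cells in the changes of the synthetase and eIF2B genes was not tested.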

How the data were processed

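RNA of 12 myelin libraries was sequenced on an Illumina instrument. Per the labels and the methods, reads were aligned to mm9 with TopHat (TopHat2 2.0.8 in the submitters' processing notes), counted per gene with HTSeq 0.5.4p1 and divided by DESeq size factors. SAMtools 0.1.19 is also listed. What the authors deposited is this signal, the normalized read count per gene and library, not raw counts. Strand handling and the annotation are not given in the sources used here. Symbols, exons and positions were taken from GENCODE vM1 on NCBIM37, where 96.3% of symbols were found, and copies of exons with blastn 2.17.0 (at least 100 bases, 90% identity).

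Values were tested as log2(normalized read count + 1) with limma 3.58.1 (R 4.3.3), with a trend and 1 fit over 12 libraries with age alone, for 14634 genes with a mean of at least 10. Adjusted p values are Benjamini-Hochberg values over all genes, with a false discovery rate of 0.1. Fold changes on this scale understate the change of low genes. The members, the lists, the motifs and the rule for named genes were chosen with earlier results of these data known. The rule gives library values for the eIF2B subunits, the leukodystrophy genes and the 3 largest rises and falls called between consecutive ages, and counts for the others. Separate mice are stated for the 6-month libraries only. No column was left out.

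Because values are whole multiples of 1 read (100% within 0.1 read, over the 76.3% to 82.7% of values per library low enough to check), reads were recovered and tested with edgeR 4.0.16 and DESeq2 1.42.0 as alternatives. From P18 to P75, P75 to 6 months, 6 to 24 months and P18 to 24 months edgeR called 7080, 8948, 4585 and 10089 genes, and DESeq2 called 6799, 8631, 4354 and 9822, beside 7137, 8865, 4287 and 10092 with limma. Fits were repeated without a filter, with a mean over 100, with pseudocounts 0.5 and 10, with libraries of 2 ages alone, with a block for replicate number, equal totals, quantile normalization, a false discovery rate of 0.05 and each library left out. Leaving out Lars2 and using transcript length were chosen after seeing the data. Correlations of same-numbered libraries' deviations from the age means were 0.161, 0.101 and 0.187 between P75 and 6 months, so the block was read as a paired fit for that comparison, from the numbers alone, and between -0.213 and 0.029 in the other comparisons. All reported values come from the fit without the block unless it is named. The values of 1 mitochondrial enzyme and 1 promoter sequence are not reported here, while the counts and medians over classes include every member. The scripts were tested on simulated data. Python 3.11.15, pandas 2.3.3 and matplotlib 3.10.9 were used.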

Additional observations from a re-analysis of the deposited data

How the results depend on the processing

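No called member changed direction in any setting run. With every library scaled to the same total, members rising and falling from P18 to P75 went from 6 and 10 to 10 and 3, members rising from 6 to 24 months from 3 to 1 and members falling from P18 to 24 months from 14 to 6. The same scaling moved the P18 to P75 medians to 0.10 (0.0995, cytosolic) and 0.0304 (mitochondrial) and the cytosolic P18 to 24 months median to 0.066. Members rising from P18 to P75 were 3 with only the libraries of both ages and 3 at a false discovery rate of 0.05. The mitochondrial P18 to P75 median was 0.0024 with a filter for a mean over 100, and its P18 to 24 months median was -0.2286 with quantile normalization. With 1 library left out, members rising from P18 to P75 ranged from 2 (without P18 replicate 2) to 9, and were 3 without P75 replicate 3. Members rising from 6 to 24 months ranged from 1 (without 6-month replicate 1 or 24-month replicate 2) to 4, and members falling from P18 to 24 months from 9 (without 24-month replicate 2) to 14. The cytosolic median ranged from -0.1043 (without P75 replicate 2) to 0.0194 from P18 to P75, and from -0.0449 to 0.0724 (without P18 replicate 3) from P18 to 24 months. The mitochondrial median ranged from -0.2068 to -0.0139 (without P75 replicate 1) from P75 to 6 months, and from -0.002 (without 24-month replicate 1) to 0.1355 from 6 to 24 months. The replicate block left 15 rises and 11 falls from P75 to 6 months and changed 2 member calls elsewhere, Eif2b2 from 6 to 24 months (adjusted p = 0.101) and Tars2 from P18 to 24 months (0.0954). The cause of these shifts was not tested. Of the called members, 5 of 16, 18 of 26, 8 of 11 and 14 of 24 kept their call in every setting in the 4 comparisons.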
